A study of Mus musculus with 6 samples.

Results

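The kinases TNIK, MINK1 and MAP4K4 are encoded by 3 paralogous genes, Tnik, Mink1 and Map4k4, and their RNA was examined in mouse hippocampus with and without the arginine methyltransferase PRMT9. The 3 genes were taken by symbol out of 36008 genes with a deposited level, and their 49 annotated transcripts out of 118783 transcripts with a deposited level. They were chosen on results of the same WT and Prmt9 KO mice, so their levels, isoform shares and exon inclusion are given here as descriptions, with no test of the difference between genotypes.

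RNA came from the hippocampus of female B6J mice aged 2 weeks, 3 WT and 3 Prmt9 KO littermates. The KO was whole-body: a floxed Prmt9 exon had been deleted in the germline by a CMV-driven Cre, so every cell type carried the deletion, and the tissue was taken whole. Libraries were made from poly(A)+ RNA with a stranded kit. Prmt9 itself was at 11.8, 15.2 and 15.0 TPM (a level scaled to transcript length and library size) in WT mice 1, 2 and 3, and at 3.93, 4.61 and 4.67 TPM in KO mice 1, 2 and 3.

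The libraries held between 194098391 and 286771677 estimated counts, the fewest in WT mouse 1. In WT mouse 1, 37.4% of transcripts were at 0, against 24.8% in KO mouse 1 and between 22.75 and 23.8% in the others. The part of this difference in the values below was not tested. The first principal component of the gene levels, with 82.8% of the variance, set WT mouse 1 and KO mouse 1 apart from the other 4 mice, and this separation crossed the genotypes. The 4 oligodendrocyte markers summed to 1735 and 914 TPM in WT mouse 1 and KO mouse 1 and to between 6689 and 9555 TPM in the others, whereas the 6 neuronal markers summed to 1385 and 1685 TPM in the mice numbered 1 and to between 2244 and 2476 TPM in the others. The 3 choroid plexus markers summed to between 604 and 7239 TPM in WT and to between 859 and 3315 TPM in KO. Most of each sum was Ttr, at 589 to 7157 TPM in WT and 844 to 3261 TPM in KO. All 25 markers of the 7 cell types examined were at 1 TPM or more in every mouse. In bulk tissue, fewer cells of a type and less RNA per cell cannot be told apart, and the part of cell composition in the values below was not tested.

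TNIK, MINK1 and MAP4K4 are serine/threonine kinases of the germinal centre kinase branch of the STE20 family. Each has an N-terminal kinase domain, a long intermediate region that binds adaptor proteins and is shaped by alternative splicing, and a C-terminal citron homology domain through which the small GTPase RAP2 can bind. In neurons TNIK is known as a component of the postsynaptic density, and the kinases act upstream of JNK signalling and of the Hippo pathway kinases LATS1 and LATS2, while TNIK also binds TCF7L2 in Wnt signalling. PRMT9 methylates SF3B2, a protein of the U2 snRNP, the spliceosome particle that recognises the branch point ahead of a 3′ splice site.

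All 3 genes lie on the forward strand (build GRCm38). Tnik (ENSMUSG00000027692) spans 412.6 kb at chr3:28263214-28675858, Map4k4 (ENSMUSG00000026074) 125.4 kb at chr1:39900913-40026310, and Mink1 (ENSMUSG00000020827) 51.6 kb at chr11:70562881-70614483. The antisense gene Gm12316 is annotated within Mink1 and was not analysed here. No stretch of 31 bases was shared between transcripts of different members, so a read that matched one kinase exactly over such a stretch did not match another.

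The results turn on the 3′ end of Tnik, where the annotation holds 3 transcripts that keep intron sequence. Counted along the coding transcript Tnik-205, which has 33 exons, intron 31 is 249 bases long (chr3:28665840-28666088) and intron 32, the last, is 1670 bases long (chr3:28666229-28667898). Tnik-204 ends 106 bases into intron 31, Tnik-212 ends 221 bases into intron 32, and Tnik-216 is a single exon that starts within intron 32, holds its last 1053 bases and runs on through the last exon. The boundaries of these introns, from the GENCODE M21 transcripts, are shown with exon bases in capitals and intron bases in lower case, so that the splice sites read through in these transcripts can be seen.
Tnik intron 31, 5′ end (chr3:28665830-28665889): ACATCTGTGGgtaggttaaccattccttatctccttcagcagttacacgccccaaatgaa
Tnik intron 32, 5′ end (chr3:28666219-28666278): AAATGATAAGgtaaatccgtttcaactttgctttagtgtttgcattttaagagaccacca
Tnik intron 32, 3′ end (chr3:28667849-28667908): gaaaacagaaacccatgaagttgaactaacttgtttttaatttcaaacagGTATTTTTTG
For comparison, these are the 3′ ends of the introns kept in the most abundant retained-intron transcripts of the other members, Mink1-209 and Map4k4-203, in the same notation.
Mink1 intron 21, 3′ end (chr11:70610028-70610087): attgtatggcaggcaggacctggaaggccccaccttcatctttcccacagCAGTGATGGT
Map4k4 intron 28, 3′ end (chr1:40023310-40023369): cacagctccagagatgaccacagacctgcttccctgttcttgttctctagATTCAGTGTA
All 5 windows have GT at the start or AG at the end of the intron. C or T made up 12 of the last 20 intron bases in Tnik intron 32, against 15 in Mink1 intron 21 and 16 in Map4k4 intron 28. In the other retained-intron transcripts of the paralogs described by mouse below, Mink1 intron 13 had 13 and Map4k4 intron 22 had 10, so Tnik lay within the range of these paralog introns. Introns kept only in less abundant transcripts of the paralogs were not counted. Over 8764 annotated introns whose 3′ end lay in a retained-intron transcript at a mean of 1 TPM or more, the median was 13 and 31.2% had 12 or fewer, so the Tnik value was a common one.

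**Figure D1:**
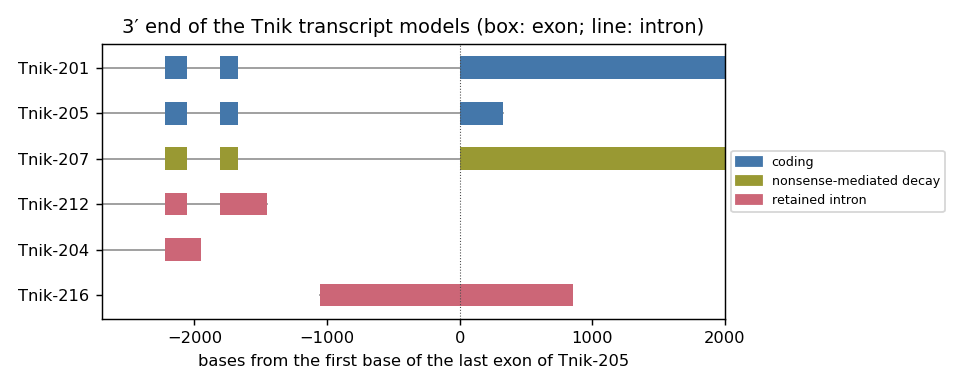
Exons of 6 Tnik transcripts near the 3′ end, one row per transcript, plotted in bases from the first base of the last exon of Tnik-205, with boxes for exons and lines for introns. Tnik-204 and Tnik-212 stop inside introns 31 and 32, and Tnik-216 covers the last 1053 bases of intron 32 without a break.

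Tnik-216 was at a higher level in every KO mouse than in any WT mouse. Its level was 10.7, 16.7 and 17.2 TPM in WT mice 1, 2 and 3, and 32.9, 42.8 and 40.8 TPM in KO mice 1, 2 and 3. The means were 14.9 ± 3.59 TPM in WT and 38.8 ± 5.24 TPM in KO (SD, n = 3), a ratio of 2.61. The ratio was 3.06 between the mice numbered 1 and 2.46 between the means of the other mice. Of the 1874 stretches of 31 bases in Tnik-216, 1051 occurred in no other transcript, so its level rested on intron sequence of its own; its estimated counts were between 2403 and 3838 in WT and between 7515 and 11555 in KO.

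Tnik-204, the short transcript that ends in intron 31, followed the same pattern. It was at 5.27, 7.96 and 8.49 TPM in the WT mice and at 15.9, 20.4 and 18.5 TPM in the KO mice. The groups did not overlap and the means had a ratio of 2.52. Of its 937 stretches of 31 bases, 106 were its own.

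Tnik-212 has 31 exons and otherwise runs like a coding transcript up to its end in intron 32. It was at 1.74, 7.73 and 8.13 TPM in WT and at 9.32, 19.96 and 18.1 TPM in KO, and every KO mouse was again above every WT mouse. The ratio of the means was 2.69, with 5.36 between the mice numbered 1 and 2.40 among the other mice. The 3 transcripts summed to 17.7, 32.4 and 33.8 TPM in the WT mice and to 58.1, 83.1 and 77.3 TPM in the KO mice.

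Among all 10162 retained-intron transcripts at a mean of 1 TPM or more, 494 (4.86%) were higher in every KO mouse than in every WT mouse, and 28 (0.276%) were so with a ratio of the means of at least 2. The median ratio over these transcripts was 1.04, and over coding transcripts 1.02. Tnik-216, Tnik-204 and Tnik-212 are among the 28, and since the genes were selected on this contrast, nothing is read from that count.

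The coding transcripts of Tnik differed less between the genotypes. Tnik-205 was at 10.9, 26.2 and 26.9 TPM in WT and at 14.7, 29.2 and 30.1 TPM in KO, so the groups overlapped. Tnik-201, which has 31 exons and a last exon of 7960 bases with a long 3′ untranslated part, was at 10.3, 18.0 and 18.2 TPM in WT and at 15.2, 19.3 and 19.5 TPM in KO, again with overlap. Within pairs of mice with the same number both were higher in KO, Tnik-205 by 3.82, 3.01 and 3.25 TPM and Tnik-201 by 4.92, 1.23 and 1.27 TPM. Of all transcripts at a mean of 1 TPM or more, 29.9% differed in one direction in all 3 pairs. Summed over the 8 coding transcripts, the level was 21.2, 44.4 and 45.1 TPM in WT and 30.0, 48.5 and 49.7 TPM in KO. The ratio of these means was 1.16, against 2.55 for the 8 retained-intron transcripts together.

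Tnik-207, annotated as a target of nonsense-mediated decay, lay between the coding and the retained-intron transcripts in its ratio. It carries an exon of 104 bases (chr3:28549541-28549644) whose length is not a multiple of 3, and the annotated reading frame stops inside it. The exon is printed in lower case with that stop codon in capitals.
Tnik exon of 104 bases: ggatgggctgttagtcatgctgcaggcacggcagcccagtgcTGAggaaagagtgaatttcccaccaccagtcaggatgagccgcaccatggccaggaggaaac
Tnik-207 was at 4.92, 7.71 and 6.73 TPM in WT and at 9.46, 10.5 and 11.9 TPM in KO. Every KO mouse was above every WT mouse, and the ratio of the means was 1.64. As a share of the gene's TPM, however, Tnik-207 was 9.27 ± 1.73% in WT and 8.46 ± 1.15% in KO (SD, n = 3), and the shares of the groups overlapped. As a share of estimated counts, the means were 12.2% in WT and 13.7% in KO, so the direction depended on the measure.

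**Figure D2:**
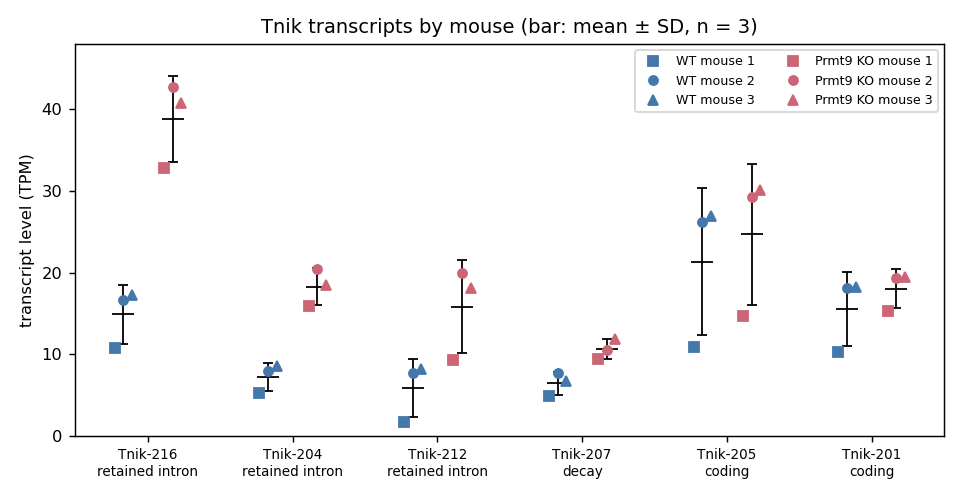
Level of the 6 described Tnik transcripts in TPM, one point per mouse, blue for WT and red for Prmt9 KO, with the mean and SD of 3 mice as black bars. The 3 retained-intron transcripts and Tnik-207 have all KO points above all WT points, and Tnik-205 and Tnik-201 do not.

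These 6 transcripts held at least 98.0% of the Tnik TPM in each mouse. Of the other 12, 5 coding transcripts were at 0 in every mouse, and Tnik-218, with 1167 bases of intron 1, was the highest at means of 0.779 TPM in WT and 0.919 TPM in KO. Tnik-218 and the other 4 retained-intron transcripts, which hold parts of introns 1, 2, 3, 5, 6 and 21, overlapped between the genotypes in TPM. Over transcripts of all types and all genes at a mean of 1 TPM or more, 7% had groups that did not overlap in either direction. Of the 6 such Tnik transcripts 4 did not overlap, all higher in KO. The gene was selected on this contrast and its transcripts share reads, so nothing is read from that count.

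The whole Tnik gene was also at a higher level in every KO mouse than in any WT mouse. Tnik was at 44.2, 86.0 and 87.2 TPM in WT and at 98.4, 143.6 and 140.5 TPM in KO. The KO mouse exceeded the WT mouse of the same number 2.22-fold for mouse 1, 1.67-fold for mouse 2 and 1.61-fold for mouse 3, and the means of 72.5 ± 24.5 TPM and 127 ± 25.3 TPM (SD, n = 3) gave a log2 ratio of 0.81. Of the difference between these means in TPM, 81.8% lay in retained-intron transcripts, 10.6% in coding transcripts and 7.57% in Tnik-207. TPM gives short transcripts more weight, and this split was not computed on counts. By estimated counts, coding transcripts held 73.2% of the gene in WT and 59.2% in KO, and retained-intron transcripts 14.6% and 27.1%. On counts, where a short transcript weighs less, the difference was smaller: Tnik was at 165, 245 and 244 CPM (counts scaled to library size with TMM factors, not to transcript length) in WT and at 251, 328 and 324 CPM in KO, with a log2 ratio of the means of 0.47, and the groups still did not overlap.

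Mink1 was the most abundant of the 3 and did not separate the genotypes. It was at 123, 268 and 271 TPM in WT and at 146, 246 and 259 TPM in KO, with a log2 ratio of the means of −0.02. The mouse numbered 1 was the lowest in each genotype, and its distance from the other 2 mice was much larger than the distance between genotypes.

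Map4k4 behaved similarly, at 108, 166 and 155 TPM in WT and at 114, 148 and 160 TPM in KO. Its log2 ratio was −0.03 and the groups overlapped. The order Mink1, Map4k4, Tnik held within each of the 6 mice. Across the WT mice the ranges of Mink1 and Map4k4 overlapped and Tnik lay below both, whereas in KO the range of Tnik (98.4 to 143.6 TPM) overlapped that of Map4k4 (114 to 160 TPM).

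**Figure D3:**
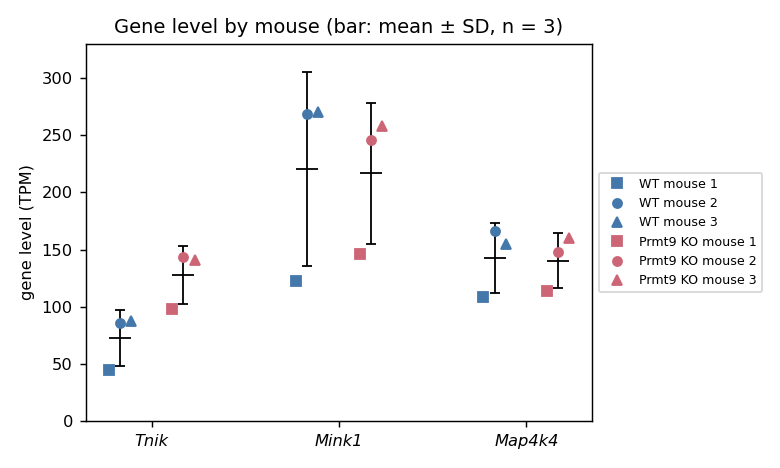
Gene level in TPM of Tnik, Mink1 and Map4k4, one point per mouse, with the mean and SD of 3 mice per genotype as black bars. For Tnik the KO mice (98.4 to 143.6 TPM) lie above the WT mice (44.2 to 87.2 TPM), and for the other genes the genotypes overlap, with mouse 1 lowest in each.

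Over all 15200 genes at a mean of 1 TPM or more, 4.82% were higher in every KO mouse than in every WT mouse. Tnik is one of them, and as a gene selected on this contrast it adds no support. The edgeR quasi-likelihood test on counts, with both a fold change over 1.5 and an adjusted p under 0.01 required, called 0 of 20315 genes (0%), with 252 at an unadjusted p below 0.05. The targeted gene Prmt9, at 21.3, 21.2 and 20.9 CPM in WT and 6.28, 6.47 and 6.70 CPM in KO, was not called either, at an adjusted p of 0.033, the smallest of all genes in the edgeR quasi-likelihood test, so 0 calls do not show that no other gene differed. DESeq2 called 3 genes, Prmt9, Gm3373 and Spx, the latter pair named after their values were seen.

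Seen as a share of the gene's own TPM, retained-intron transcripts made up most of Tnik in the KO. The share was 40.9, 39.4 and 40.4% in WT mice 1, 2 and 3, and 59.9, 58.8 and 56.1% in the KO mice. Unlike the TPM levels, the shares of the mice numbered 1 lay with those of their own genotype. The means of 40.2 ± 0.78% and 58.3 ± 1.94% (SD, n = 3) differed by 18.0 percentage points, and coding transcripts, at 50.4% in WT and 33.2% in KO, differed by −17.2 points. As a share of estimated counts, which does not divide by length, the retained-intron share was 14.6% in WT and 27.1% in KO.

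In Mink1 the retained-intron share was 29.3, 28.6 and 30.7% in WT and 28.7, 28.6 and 30.8% in KO, and the means differed by −0.16 points. In Map4k4 it was 32.6, 22.5 and 22.9% in WT and 29.8, 26.0 and 23.6% in KO, a difference of 0.50 points, with the mouse numbered 1 highest in each genotype. Both genes therefore had overlapping groups. Of 5370 genes in which such transcripts held 5% or more of the TPM, 251 (4.67%) had a higher share in every KO mouse, and in 15 (0.279%) the means also differed by at least 10 points. Tnik is among the 15, but it was selected on this contrast and nothing is read from that. The median difference over the 5370 genes was 0.31 points.

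**Figure D4:**
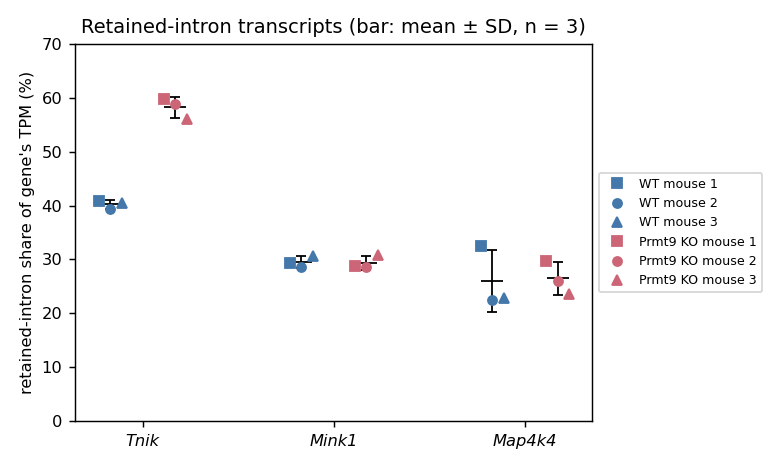
Share of each gene's TPM held by transcripts annotated as retained intron, in percent, one point per mouse, with the mean and SD of 3 mice per genotype as black bars. The Tnik points of the KO (56.1 to 59.9%) stand above those of the WT (39.4 to 40.9%), and the genotypes overlap in Mink1 and Map4k4.

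The retained-intron transcripts of Mink1 that were described by mouse were Mink1-209 and Mink1-212. Mink1-209 holds 340 of the 360 bases of intron 21, counted along the coding transcript Mink1-205. Its means were 35.4 ± 10.8 TPM in WT and 34.6 ± 7.70 TPM in KO (SD, n = 3), a ratio of 0.98. Mink1-212, which holds 219 bases of intron 13, was at 18.6 ± 10.3 TPM and 19.6 ± 7.72 TPM, a ratio of 1.05.

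Those of Map4k4 were Map4k4-203, with 150 bases of intron 28, and Map4k4-210, with 254 bases of intron 22, counted along Map4k4-201. Map4k4-203 was at 19.4 ± 0.36 TPM in WT and 18.8 ± 1.19 TPM in KO, and Map4k4-210 at 13.5 ± 0.41 TPM and 14.3 ± 2.93 TPM (SD, n = 3). Their ratios were 0.97 and 1.06. So 4 retained-intron transcripts of the paralogs, between 13.5 and 35.4 TPM in WT, had groups that overlapped, while the 3 of Tnik had ratios from 2.52 to 2.69.

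Of the coding transcripts of Mink1, Mink1-205 led at 43.7 ± 2.74% of the TPM in WT and 42.1 ± 1.28% in KO. Mink1-213, a partial coding transcript with the exon of 87 bases described below, was at 10.7, 12.3 and 11.2% in WT and at 14.0, 13.5 and 12.6% in KO. These shares did not overlap, with a difference of 1.96 points, but the TPM levels did, with KO higher by 7.25, 0.286 and 2.15 TPM within pairs of the same number. The difference in share was 1.29 points without both mice numbered 1 and 0.51 points on estimated counts. Mink1-204 was at 8.16 ± 2.69% and 7.56 ± 1.77%. Mink1-201 fell outside the described transcripts, with shares under 5%, and its levels were 3.79, 6.07 and 3.50 TPM in WT and 1.06, 3.47 and 3.09 TPM in KO. Mink1-201 was the only 1 of 11 Mink1 transcripts at a mean of 1 TPM or more whose groups did not overlap. Over all genes 7% of such transcripts had groups that did not overlap, and nothing is read from this count.

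Map4k4 divided its TPM among 5 coding transcripts above 5%. Map4k4-213 held 23.9 ± 1.497% in WT and 21.4 ± 2.03% in KO, Map4k4-201 17.8 ± 1.85% and 20.6 ± 5.24%, and Map4k4-202 11.99 ± 0.54% and 11.4 ± 0.95%. Map4k4-209 held 10.6 ± 2.68% and 11.8 ± 3.19%, and Map4k4-208 7.15 ± 3.20% and 6.45 ± 2.21%. All 5 shares overlapped between the genotypes. Between mice of the same number, however, Map4k4-213 was lower in KO in all 3 pairs, with differences of −3.10, −2.21 and −2.15 points. Map4k4-201 was higher by 6.74, 0.72 and 1.02 points, and Map4k4-209 was higher by 0.62, 0.80 and 1.96 points. Mink1-205 was likewise lower in all 3 pairs, with differences of −3.68, −0.062 and −1.003 points. Over transcripts at a mean of 1 TPM or more in all genes with several transcripts, 31% of the shares differed in one direction in all 3 pairs, and nothing is read from these pairs. Of 11 Map4k4 transcripts at a mean of 1 TPM or more, the partial coding transcript Map4k4-206 was the 1 without overlap, at a mean of 2.14 TPM in WT and 1.04 TPM in KO. The share without overlap was 7% over such transcripts of all genes, and nothing is read from this count either.

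Much of this division among coding transcripts is an estimate. Of the 49 transcripts, 20 had no stretch of 31 bases of their own, Tnik-205, Mink1-205 and Map4k4-213 among them, so the fit could place reads on them only through the combination of exons they share with others. Across the members, 10 transcripts were at 0 in every mouse, 5 of Tnik, 1 of Mink1 and 4 of Map4k4.

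The intermediate region that lies between kinase and citron homology domains carries cassette exons with counterparts in the paralogs, and these are printed because their inclusion could be compared between genes. Capitals mark bases equal at the same position in all of the exons of a set, and none of the exons shifts the reading frame.
Tnik exon of 87 bases (chr3:28594907-28594993): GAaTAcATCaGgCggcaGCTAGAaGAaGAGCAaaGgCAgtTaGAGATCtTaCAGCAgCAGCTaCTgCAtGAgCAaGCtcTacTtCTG
Mink1 exon of 87 bases (chr11:70606631-70606717): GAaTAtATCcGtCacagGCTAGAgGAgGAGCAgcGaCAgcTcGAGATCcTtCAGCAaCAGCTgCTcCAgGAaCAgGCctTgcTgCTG
Map4k4 exon of 87 bases (chr1:39999888-39999974): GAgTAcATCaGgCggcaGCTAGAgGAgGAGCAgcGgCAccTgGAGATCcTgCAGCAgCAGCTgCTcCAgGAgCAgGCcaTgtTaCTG
Tnik exon of 24 bases (chr3:28625199-28625222): AGCTATAAGaaAGCtATaGatGAG
Mink1 exon of 24 bases (chr11:70609408-70609431): AGCTATAAGcgAGCaATtGgcGAG
The exons of 87 bases agreed at 58 positions in all 3 genes, with pairwise identity from 70.1% (Tnik and Mink1) to 80.5% (Mink1 and Map4k4), and the exons of 24 bases agreed at 18 positions.

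Inclusion is given as PSI, here the TPM of transcripts that include an exon divided by the TPM of transcripts that either include it or join its neighbours directly. The Tnik exon of 87 bases had a PSI of 0.45, 0.57 and 0.58 in WT and 0.49, 0.62 and 0.61 in KO, so the groups overlapped, although KO was higher by 0.039, 0.053 and 0.024 within pairs of the same number. The retained-intron transcript Tnik-212 includes this exon and counts toward inclusion. The difference of the means was −0.00045 with protein-coding transcripts only and −0.0023 without WT mouse 1. In Mink1 the exon of 87 bases was mostly skipped, with a PSI of 0.16, 0.18 and 0.18 in WT and 0.21, 0.20 and 0.20 in KO. Every KO mouse was above every WT mouse by a mean of 0.026, and on estimated counts the difference was 0.0053. In Map4k4 the exon did not meet the limits for a described cassette exon.

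The exon of 24 bases was included far more in Mink1 than in Tnik in every mouse. Its PSI in Mink1 was 0.89, 0.83 and 0.82 in WT and 0.89, 0.83 and 0.83 in KO, with overlapping groups. In Tnik it was 0.39, 0.44 and 0.45 in WT and 0.30, 0.37 and 0.38 in KO, lower in every KO mouse, with a difference of −0.076. Tnik-212, one of the retained-intron transcripts at a higher level in KO, lacks this exon and counts toward skipping. With protein-coding transcripts only, the difference was −0.00045, so the lower PSI rested on transcripts that are not annotated as coding.

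Among the other cassette exons, the Tnik exon of 104 bases had a PSI of 0.18, 0.13 and 0.11 in WT and 0.19, 0.13 and 0.15 in KO. The Mink1 exon of 111 bases was at a mean of 0.11 in WT and 0.12 in KO, and the Map4k4 exon of 9 bases, a microexon at chr1:40008331-40008339, at 0.73 in both. The Map4k4 exon of 192 bases (chr1:40011650-40011841) was at 0.37, 0.39 and 0.38 in WT and at 0.31, 0.36 and 0.34 in KO, lower in every KO mouse with a difference of −0.043. The remaining Map4k4 events lie at chr1:40001430-40003987. Mean PSI of the exon of 162 bases, where its neighbour starts at 40004807, was 0.352 in WT and 0.366 in KO. For the exon of 225 bases it was 0.062 and 0.034, and neither event overlapped. Groups overlapped for the exon of 162 bases before 40003757 (0.51 and 0.53) and the exon of 231 bases (0.42 and 0.45, and 0.58 and 0.62). In all, 13 events met the limits, 3 in Tnik, 3 in Mink1 and 7 in Map4k4, and 5 had groups that did not overlap. The 5 differences had both signs and sizes from 0.014 to 0.076, while of 7978 events in all genes 11.5% had groups that did not overlap. In 10 of the 13 events PSI differed in one direction in all 3 pairs of mice, and 32.1% of the events in all genes did so. Since the genes were selected on this contrast and events of a gene share transcripts, nothing is read from these counts.

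**Figure D5:**
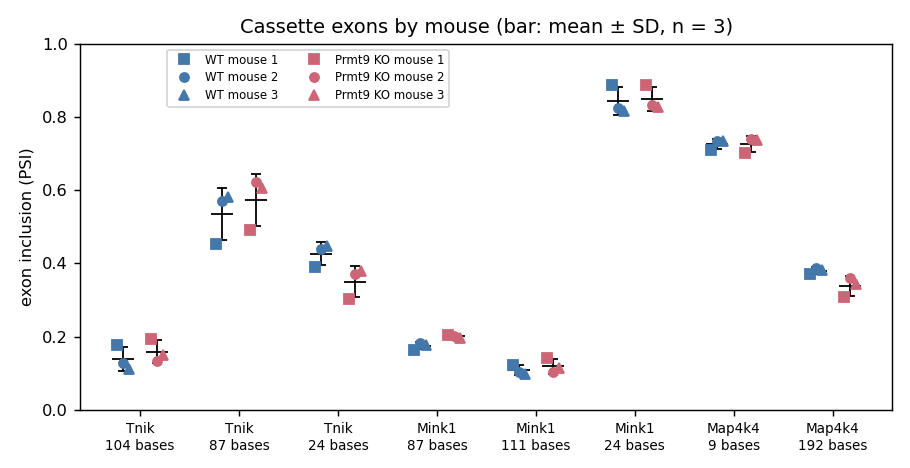
PSI of 8 cassette exons of Tnik, Mink1 and Map4k4, labelled by gene and exon length, one point per mouse, with the mean and SD of 3 mice per genotype as black bars. The Tnik exon of 24 bases and the Map4k4 exon of 192 bases are lower, and the Mink1 exon of 87 bases higher, in every KO mouse, and the other exons overlap between the genotypes.

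Genes that followed each kinase most closely over the 6 mice were found among 11829 others at a mean of 5 TPM or more, by the mean absolute difference of log2(TPM + 1) after centring each gene on its own mean. For Tnik these were Amy1 (0.089) and Zc3h11a (0.10). Amy1 was at 15.5, 25.8 and 25.9 TPM in WT and at 30.9, 42.9 and 47.95 TPM in KO. For Mink1 they were Prdm2 (0.017) and Snap23 (0.020), and for Map4k4 Pcx (0.016) and Rnf13 (0.020). The closest genes to Tnik were thus several times farther from it than those of the other 2 kinases.

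The partners and relatives of the kinases were examined as 79 genes in 5 lists, all of which could be tested. The edgeR quasi-likelihood test called 0 of the 79 in either direction, with 0 at an unadjusted p below 0.05, and DESeq2 called 0. With the replicate number as a block in edgeR, 4 of the 79 were at an unadjusted p below 0.05. With a term for the mice numbered 1 it was 5. Over all 20315 genes the counts in these fits were 1168 and 1979. The median log2 fold change was −0.01 over all genes tested. In the list of 22 other STE20 kinases the median was −0.0021, the most abundant, Stk25, was at a mean of 328 TPM in WT and 329 TPM in KO, and the largest value was 0.45 for Nrk, which was at 0.0831 TPM in WT. In the list of 16 RAP2 GTPases, adaptors and partners the median was −0.04, the β-catenin gene Ctnnb1 was at 441 and 481 TPM, and TNIK's transcription factor partner Tcf7l2 had the largest value, −0.25 ± 0.21 (SE).

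In the JNK cascade, 13 genes had a median of −0.02, the scaffold gene Mapk8ip3 was at 259 and 258 TPM, and Jun, the transcription factor at its end, had the largest value at −0.28 ± 0.12 (SE; unadjusted p = 0.055, edgeR quasi-likelihood test). The 13 Hippo pathway genes had a median of 0.05, with Nf2 at 82.3 and 89.9 TPM and the largest value, 0.40 ± 0.42 (SE), for the transcription factor gene Tead4. In the 15 genes of STRIPAK, the phosphatase complex that holds STE20 kinases, the median was −0.02, with Ppp2r1a at 583 and 576 TPM and 0.12 ± 0.25 (SE) for Strip2.

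Differential transcript usage was tested across genes with edgeR's diffSpliceDGE at a Simes adjusted p below 0.01, which called 22 of 13560 genes (0.162%). The count was 12 with the replicate number as a block, 3 with limma, 139 without WT mouse 1 and 6 without KO mouse 3. Of the listed genes, 74 could be tested and 0 were called, with 1, Pak3 (unadjusted p = 0.0095), under an unadjusted p of 0.05, and limma's diffSplice called 0. Without WT mouse 2, Map2k7, the kinase that activates JNK, was called (adjusted p = 0.00023, edgeR diffSpliceDGE).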

How the data were processed

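Poly(A)+ RNA of 6 hippocampi was sequenced as paired reads. The authors mapped reads to GRCm38/mm10 with STAR (2.7.1a in the submitters' processing notes) and quantified transcripts with kallisto (version 0.46.0 in those notes; the methods name another). The deposited transcript values are estimated counts and TPM, and the deposited gene table holds TPM that the authors summed with tximport. Whether kallisto used the strand is not given in the sources used here. The quantified models hold retained-intron transcripts but no complete unspliced gene, so reads from unspliced RNA, wherever it kept these introns, would count toward them.

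Transcripts were matched to GENCODE M21 (116622 of 118783). Estimated counts were summed by gene, rounded, and tested with edgeR 4.0.16's quasi-likelihood test (TMM, filterByExpr), WT against Prmt9 KO. Benjamini-Hochberg adjustment was over all genes. Transcript usage was tested with diffSpliceDGE. Alternatives used DESeq2 and limma. The edgeR quasi-likelihood test and diffSpliceDGE were first run on simulated counts, and DESeq2 and limma were not. Transcripts with 5% or more of a gene's TPM in either genotype were described by mouse. A cassette exon was described where its transcripts reached 1 TPM in all mice and the mean PSI of either genotype lay from 0.05 to 0.95. Introns were numbered along the coding transcript with the most exons among those described by mouse, the longest if tied. Per list, called genes, the largest fold change and the most abundant gene were named. The members and lists were chosen with earlier results of these data known.

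Mice with the same number deviated together from their genotype's mean (correlations 0.82, 0.77 and 0.73 over genes), and the titles give the numbers, so the numbers were treated as pairs in an alternative. Numbers 2 and 3 also correlated with each other (0.69 and 0.79).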

Additional observations from a re-analysis of the deposited data

How the results depend on the processing

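The higher retained-intron share of Tnik in KO was 18.0 percentage points with all mice, 17.2 to 19.1 points with any 1 mouse left out, 17.6 points without both mice numbered 1, and 12.5 points as a share of estimated counts. The log2 ratio of the Tnik gene level was 0.81, 0.47 on CPM, 0.56 without WT mouse 1 and 0.97 without KO mouse 1; those of Mink1 (−0.31 to 0.19) and Map4k4 (−0.19 to 0.10) took both signs when 1 mouse was left out. The difference of Tnik-201 as a share of the gene, −7.47 points, became 0.045 points among protein-coding transcripts only. Of the other shares and PSI values recomputed, 256 moved by less than 1 SD and 13 by more. For genes called, the count of 0 became 1 at an adjusted p below 0.05 with no fold limit, 3 with DESeq2 and 1 with a term for the mice numbered 1, and stayed 0 under the replicate block and with any 1 mouse left out. The count of listed genes called for expression was 0 under every alternative run. Genes called for transcript usage numbered 22, against 3 with limma, 12 with the gene-level F test, 1 with at least 10 counts in every mouse, 12 in the paired fit with the replicate block, 52 with a term for the mice numbered 1, and 6 to 139 with 1 mouse left out (139 without WT mouse 1, 6 without KO mouse 3). Listed genes called for usage numbered 0 to 1, the 1 without WT mouse 2. The causes were not tested. The targeted gene Prmt9 missed the threshold in the edgeR quasi-likelihood test (adjusted p = 0.033, and 0.035 with the replicate block). It was the 1 gene that edgeR called with a term for the mice numbered 1 (adjusted p = 0.0013). The DESeq2 Wald test on the same mice called it as well (adjusted p = 9.2e-61).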
